A study of Homo sapiens with 8 samples.

Results

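Intergenic FLI1 peaks are the sites of FLI1 ChIP-Seq enrichment that lay away from genes in the lines OCI-Ly1 and VAL. Both are established human cell lines of germinal center B-cell (GCB) diffuse large B-cell lymphoma (DLBCL), and neither carried a treatment. The members were chosen by their q-value and their position. A peak was taken when its -log10 q was at least 3, which corresponds to a false discovery rate of 0.001. Its centre also had to lie more than 3 kb from every transcription start site (TSS) and outside every transcript of GENCODE on GRCh37, and 2 crowded windows were left out. The rule took 603 of 5354 passing peaks from OCI-Ly1 replicate 2, or 11.3% with a Wilson 95% interval of 10.4 to 12.1. It took 847 of 6474, or 13.1% (12.3 to 13.9), from VAL replicate 2, so 1450 of 11828 in all.

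ChIP-Seq recovers DNA bound by a protein with an antibody and sequences it, here with a rabbit polyclonal antibody against FLI1. The study made 4 FLI1 libraries, 2 replicates per line, beside 4 samples of input DNA, which were not analysed here. OCI-Ly1 replicate 1 held 37 intervals, 33 of them over 1 Mb, and was used for no value below. Each line therefore gave 1 main library, and no value has a replicate error within OCI-Ly1. VAL replicate 1, with 973 passing peaks, was not used by the rule and served as a further readout. Its 137 intergenic passing peaks made up 14.1% of its passing peaks (12.0 to 16.4). The labels do not say whether replicates came from separate cultures, and intervals here and below cover counting error only.

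FLI1 is a transcription factor of the ETS family, whose members bind DNA through a winged helix-turn-helix domain that reads a GGAA core. It is known from hematopoiesis and as the DNA-binding partner of the EWS-FLI1 fusion of Ewing sarcoma, which also binds runs of GGAA repeats. ETS factors often sit at promoters, while their sites away from promoters are frequently enhancers, which act on genes at a distance. Intergenic sequence also holds satellite and other repeated DNA, where reads from many copies can pile up on the few copies that the assembly contains.

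The sequences below were read from GRCh37 and cover 50 bp on each side of a summit, the position of highest enrichment. Capitals mark the ETS motif searched, CCGGAAA or CCGGAAG, and each line is printed on the strand that carries it, or on the plus strand when it was absent. The first pair are those of the 10 most significant sites found in both lines that held the motif.
Near ENSG00000286909, chr3:197381727-197381827, minus strand: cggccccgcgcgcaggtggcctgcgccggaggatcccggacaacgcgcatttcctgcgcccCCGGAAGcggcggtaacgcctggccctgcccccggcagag
On the 3′ side of TLE3, chr15:70272311-70272411, minus strand: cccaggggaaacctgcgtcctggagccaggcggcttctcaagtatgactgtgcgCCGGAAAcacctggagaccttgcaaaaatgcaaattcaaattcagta
The next 4 were selected after their values were seen, as further sites with the motif in both lines.
On the 5′ side of MGAT3, chr22:39843018-39843118, minus strand: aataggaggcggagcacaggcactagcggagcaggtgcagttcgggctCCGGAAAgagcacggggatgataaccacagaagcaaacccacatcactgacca
On the 5′ side of GPR61, chr1:110075072-110075172, plus strand: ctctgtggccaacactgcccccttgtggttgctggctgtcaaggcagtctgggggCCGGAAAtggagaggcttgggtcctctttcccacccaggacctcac
On the 5′ side of IPO7, chr11:9385988-9386088, plus strand: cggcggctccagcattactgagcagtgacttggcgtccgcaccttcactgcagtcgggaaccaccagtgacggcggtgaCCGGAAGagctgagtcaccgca
On the 5′ side of GTF2H2B, chr5:69696869-69696969, minus strand: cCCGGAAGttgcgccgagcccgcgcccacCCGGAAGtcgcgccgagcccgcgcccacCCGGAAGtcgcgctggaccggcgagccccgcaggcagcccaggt
The GTF2H2B site held 3 copies of the motif in 1 window, and the others held 1 each. Sites at 2 B-cell loci that held the motif follow, also chosen after their values were seen. The IRF4 site passed only in VAL replicate 2, at a -log10 q of 3.75 on 7 reads. Another IRF4 peak, described below, passed in both lines and in VAL replicate 1 but did not hold the motif.
On the 5′ side of IRF4, chr6:379574-379674, plus strand: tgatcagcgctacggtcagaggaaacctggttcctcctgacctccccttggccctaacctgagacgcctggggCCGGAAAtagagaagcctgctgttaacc
In the immunoglobulin heavy chain locus, chr14:106146610-106146710, minus strand: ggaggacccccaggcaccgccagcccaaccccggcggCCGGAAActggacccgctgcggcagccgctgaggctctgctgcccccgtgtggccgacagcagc
The last pair are the strongest OCI-Ly1 peaks of 2 of its largest clusters, and neither window held the motif.
Near ANKRD30BL, chr2:133025740-133025840, plus strand: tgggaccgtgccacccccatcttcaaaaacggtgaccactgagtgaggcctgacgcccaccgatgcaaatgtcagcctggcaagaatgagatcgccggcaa
Beside the chromosome 2 centromere gap, chr2:92291446-92291546, plus strand: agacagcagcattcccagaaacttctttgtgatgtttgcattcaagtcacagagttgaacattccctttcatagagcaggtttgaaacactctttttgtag

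Most intergenic peaks were weak, and a minority had a high local background. The median -log10 q was 3.88 in OCI-Ly1 (quartiles 3.62 and 5.75, highest 76.2) and 3.87 in VAL (3.56 and 5.78, highest 75.2). The q-value chose the members, so these values describe them and support nothing. The fold enrichment, the reads at the summit plus 1 over the local background plus 1, had a median of 5.46 in OCI-Ly1 and 5.48 in VAL. The added 1 keeps the fold low where the background is under 1 read, so it is not the plain ratio of reads to background. Reads and background could be worked back from the fold and the p-value, and the median peak rested on 7 reads at the summit in both libraries. No more than 7 reads lay behind 316 OCI-Ly1 peaks (52.4%) and 504 VAL peaks (59.5%). A -log10 q of at least 10 was reached by 68 peaks of OCI-Ly1 and 94 of VAL. At the threshold the lowest member and the highest peak outside had values of 3.00493 and 2.99304 in OCI-Ly1, and of 3.00347 and 2.99669 in VAL.

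The local background was under 1 read at 492 peaks of OCI-Ly1 and 758 of VAL, and 1 read or more at 111 (18.4%) and 89 (10.5%). The peaks with the higher background were often beside assembly gaps of at least 1 Mb, taken as runs of unknown bases, such as centromeres. Of them, 54.1% in OCI-Ly1 and 37.1% in VAL lay within 1 Mb of such a gap, against 4.67% and 4.09% of the others. They took up 27 of the 50 most significant intergenic peaks in OCI-Ly1 and 21 of 50 in VAL, yet their median fold was lower, 3.39 and 5.15. The ETS motif was at 4.50% and 4.49% of them, against 12.6% and 11.5% of the peaks with a background under 1 read. Sharing, clusters, the motif and VAL replicate 1 are therefore also given below for the peaks with a background under 1 read, a split chosen after seeing the data. Distances and the comparisons with promoters and introns are given for all members only. The part that repeated sequence or extra DNA copies played at these sites was not tested.

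**Figure D1:**
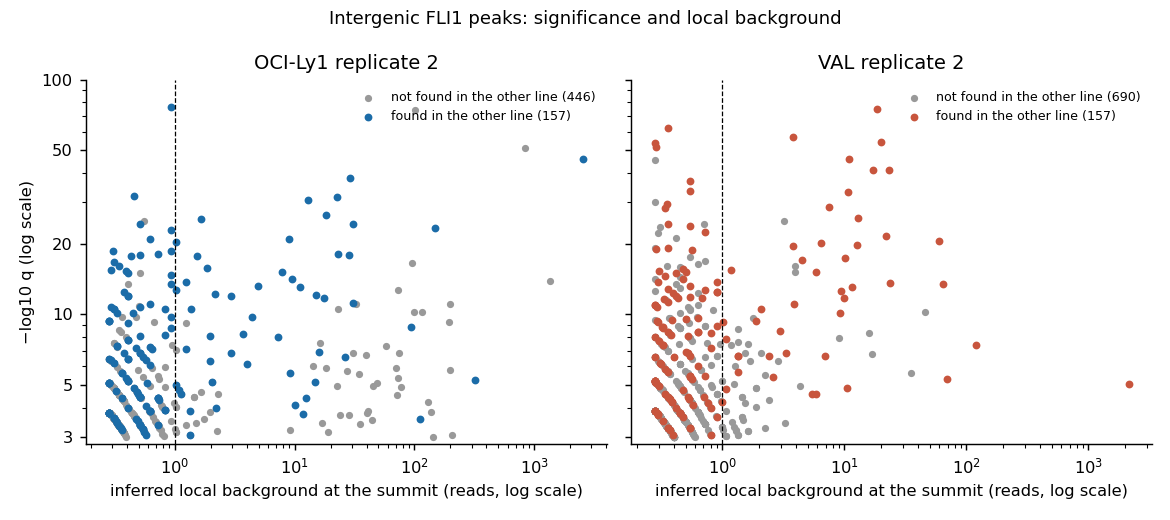
Significance of each intergenic FLI1 peak (−log10 q, log scale) against the inferred local background at its summit (reads, log scale), with OCI-Ly1 replicate 2 on the left and VAL replicate 2 on the right. Coloured points are the 157 peaks of each library that overlapped a passing peak of the other line, grey points are the rest (446 and 690), and the dashed line marks 1 read, to the right of which lie 111 OCI-Ly1 and 89 VAL peaks.

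Far more intergenic regions were listed than passed. The lists held 353950 intergenic regions in OCI-Ly1, of which 0.17% passed, and 308402 in VAL, of which 0.275% passed. Intergenic positions made up 34.4% of a 1 kb grid outside assembly gaps, against 11.3% and 13.1% of passing peaks. The windows left out were 86 to 87 Mb of chromosome 8 and 49 to 50 Mb of chromosome 4. They held another 59 intergenic passing peaks in OCI-Ly1 and 39 in VAL, which gives 662 and 886 with them. The peak shares above count these peaks in the total but not as intergenic, while the grid share keeps the windows.

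Intergenic peaks lay close to genes. The median distance from the peak centre to the closest gene body was 11531 bp in OCI-Ly1 (95% interval of the median 10200 to 12715) and 9712 bp in VAL (8701 to 10684), and these intervals overlapped. Listed intergenic regions that did not pass had medians of 18692 and 18047 bp, and the intergenic grid positions 22311 bp. Peaks 3 to 10 kb from a gene made up 35.7% of the members in OCI-Ly1 and 38.7% in VAL, against 22.9% of the grid. Peaks more than 100 kb from every TSS numbered 50 in OCI-Ly1 and 34 in VAL. Of these, 2 in each line were found in the other line and 1 in each held the ETS motif. The farthest peak was 660204 bp from a gene in OCI-Ly1, at chr7:61161539-61161791 beside the centromere gap. In VAL it was 442347 bp away, at chr8:47017970-47018758, also within 1 Mb of a large gap.

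**Figure D2:**
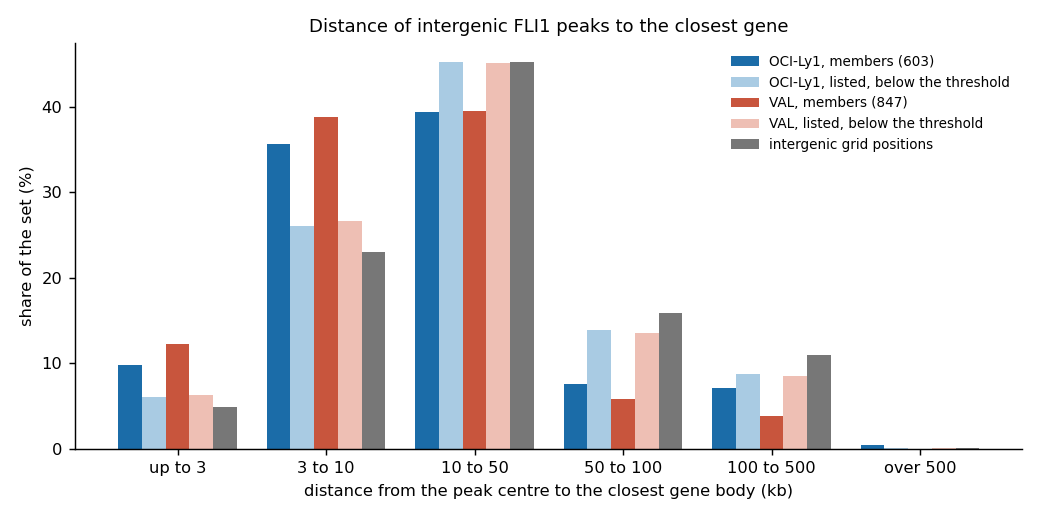
Distance from the centre to the closest gene body (kb, in bins) as the share (%) of each set: the intergenic peaks of OCI-Ly1 (603) and VAL (847), the listed intergenic regions below the threshold in each library, and intergenic positions of a 1 kb grid. Members were more frequent than the other sets up to 10 kb, and less frequent between 50 and 100 kb.

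The closest gene was protein coding for 33.0% of the peaks in OCI-Ly1 and 36.5% in VAL. It was a pseudogene for 29.0% (25.5 to 32.8) and 24.8% (22.0 to 27.8). It was a long non-coding RNA gene for 26.5% (23.2 to 30.2) and 28.5% (25.5 to 31.6). The order of these kinds differed between the lines, but their intervals overlapped within each line. Peaks lay on the 3′ side of the closest gene somewhat more often than on the 5′ side, 54.9% (50.9 to 58.8) in OCI-Ly1 and 56.8% (53.4 to 60.1) in VAL. Sites within 3 kb of a TSS had been removed by the rule, and this takes peaks from the 5′ side in particular. Gene kinds and sides were not counted on the grid, so these shares are a description. A TSS of a protein coding gene lay within 100 kb of 391 peaks (64.8%) in OCI-Ly1 and 589 (69.5%) in VAL. The median distance to such a TSS was 42492 and 36167 bp, against 120825 bp on the grid. These peaks named 347 genes in OCI-Ly1 and 501 in VAL as the closest coding gene, and 121 genes were named in both, 34.9% of the OCI-Ly1 and 24.2% of the VAL genes. A single peak stood at 92.5% and 88.6% of the genes.

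The density of intergenic peaks varied between chromosomes. OCI-Ly1 had 6.002 peaks per 10 Mb of intergenic sequence and VAL 8.66, chromosome Y not counted. Chromosome 19, the most gene-dense chromosome, was highest in both lines, with 29.6 peaks per 10 Mb in OCI-Ly1 and 37.2 in VAL. Chromosome 22 followed with 23.1 in each. Chromosome X was lowest in OCI-Ly1 with 1.07 and chromosome 4 in VAL with 3.94. With only the peaks of a background under 1 read, chromosome 19 had 26.2 and 32.1 peaks per 10 Mb.

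Sharing between the lines was less frequent at intergenic peaks than at promoters. A passing peak of VAL overlapped 157 of the 603 OCI-Ly1 peaks by at least 1 bp (26.0%, 22.7 to 29.7), and a passing peak of OCI-Ly1 overlapped 157 of the 847 VAL peaks (18.5%, 16.1 to 21.3). Among all passing peaks, left-out windows included, the shares were 48.1% in OCI-Ly1 and 39.5% in VAL. Promoter peaks were at 57.1% and 49.8% and intronic peaks at 22.2% and 15.4%, so intergenic peaks were nearer to introns. Summits of overlapping pairs were a median of 31 bp apart, and 66.2% of the OCI-Ly1 summits lay within 50 bp of their partner. All partners were intergenic too except 1 at a promoter. With a background under 1 read the shares fell to 21.5% and 14.9%.

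The strength of a peak went with sharing. Of the OCI-Ly1 peaks with a -log10 q of 3 to 5, 12.8% were found in VAL, of those from 5 to 10 39.2%, and of those at 10 or more 79.4%. In VAL the same ranges gave 6.93%, 29.5% and 66.0%. A peak that was not shared could still be listed below the threshold in the other line. For 170 of 446 unshared OCI-Ly1 peaks (38.1%) and 210 of 690 unshared VAL peaks (30.4%) the other line listed no region at all. It listed one with a -log10 q of at least 2 for 11.2% and 7.39%. Members had at least 6 reads at the summit. At peaks of 6 or 7 reads, close to that lowest count, a peak in 1 line alone does not show absence from the other.

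**Figure D3:**
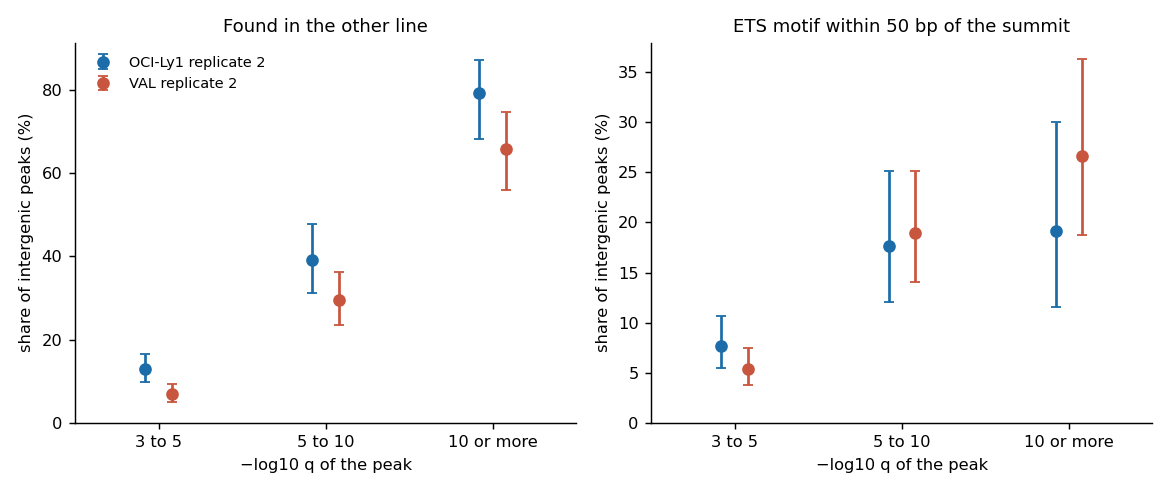
Share (%) of intergenic FLI1 peaks that overlapped a passing peak of the other line (left) and that held the ETS motif within 50 bp of the summit (right), by −log10 q of the peak. Points are shares in the main library of each line and bars are Wilson 95% intervals; sharing rose from 12.8% to 79.4% in OCI-Ly1 and from 6.93% to 66.0% in VAL.

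Where VAL replicate 1 met an intergenic peak, the site was mostly a shared one. Its passing peaks overlapped 45 intergenic peaks of VAL replicate 2 (5.31%, 3.99 to 7.04) and 38 of OCI-Ly1 (6.30%, 4.63 to 8.53), against 10.4% and 11.7% of all passing peaks of these libraries. Among the VAL peaks, 34 of 157 shared with OCI-Ly1 were met (21.7%) and 11 of 690 not shared (1.59%). The difference was 20.1 percentage points (two-sided Fisher exact test over sites, p = 9.36e-18, adjusted over 8 tests 2.49e-17). In OCI-Ly1 the same counts were 34 of 157 and 4 of 446 (0.897%). There a shared site was one already called in VAL, the line of replicate 1, so these counts are a description. Shared peaks were stronger, and within a -log10 q of at least 5 the VAL shares were 27.1% (19.9 to 35.8) and 6.02% (3.30 to 10.7). Strength was not matched there: the median -log10 q was 10.9 for shared and 6.57 for unshared VAL peaks. VAL replicate 1 met 6.32% of VAL peaks from 5 to 10 and 31.9% of those at 10 or more. From 3 to 5 the shares for shared and unshared VAL peaks were 5.13% and 0.191%, on 2 and 1 sites. With a background under 1 read the VAL difference over all values was 19.0 points (p = 1.12e-13, Fisher exact test). Of the 137 intergenic peaks of VAL replicate 1 itself, 44 were met by VAL replicate 2 (32.1%), 38 by OCI-Ly1 replicate 2 (27.7%), and 88 by neither (64.2%). Sites of 1 library are not replicates of a condition, and these p-values speak of the sites of these libraries.

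**Figure D4:**
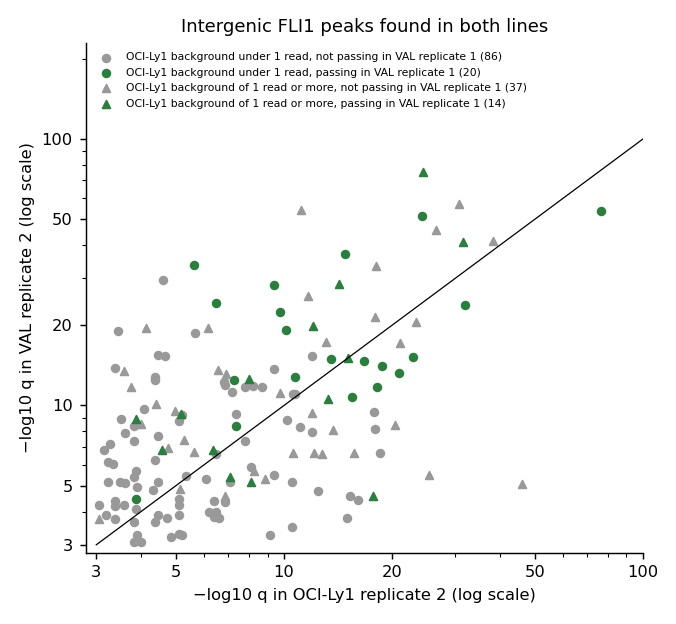
The 157 intergenic OCI-Ly1 peaks found in both lines, by −log10 q in OCI-Ly1 replicate 2 (x, log scale) and in the overlapping peak of VAL replicate 2 (y, log scale), with the line of equal values. Green marks the 34 that also passed in VAL replicate 1, triangles mark a background of 1 read or more in OCI-Ly1, and 65 of the 157 points lie below the line, with the higher value in OCI-Ly1.

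The sites with the highest lower -log10 q of both lines were of 2 kinds. Of the 10, 3 had a background under 1 read. The first was chr3:197380888-197382080, 3131 bp from the long non-coding RNA gene ENSG00000286909 and 39341 bp on the 3′ side of the TSS of RUBCN, a regulator of autophagy. Its -log10 q was 76.2 in OCI-Ly1, 53.9 in VAL and 9.47 in VAL replicate 1, with folds of 30.7 and 27.4 in the first pair. The peak at chr15:70272217-70272484 lay 67778 bp on the 3′ side of TLE3, a transcriptional corepressor of the Groucho family. It had values of 24.2, 51.4 and 19.9 in the same order. The third, at chr17:62961994-62962323, was 509 bp past AMZ2P1 with 32.0, 23.8 and 9.38, and its sequence was CpG-rich without the motif. All 3 were high in all libraries, although the order of the lines differed.

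The other 7 had a background of 3.77 to 148 reads. They lay at chr1:143278658-143279700 and chr1:143283144-143283364, near the chromosome 1 gap, at 3 positions of chr2:133025480-133031472, at chr5:71146754-71146943 and at chr2:92291392-92291570. The last had folds of only 2.04 in OCI-Ly1 and 2.60 in VAL, on 302 and 158 reads at the summit. None of the 7 held the ETS motif in either line. Summits agreed within 10 bp at all but 1 of them.

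Among shared peaks with a background under 1 read in both lines, 103 in all, 20 also passed in VAL replicate 1 (19.4%), 35 held the ETS motif in OCI-Ly1 (34.0%) and 40 were CpG-rich (38.8%). The strongest of these were looked at after their values were seen. The peak at chr12:562168-562737, 6652 bp on the 5′ side of B4GALNT3, a glycosyltransferase gene, had a -log10 q of 14.8 in OCI-Ly1, 37.1 in VAL and 21.5 in VAL replicate 1. At chr2:231467307-231467637, whose closest coding gene was the nuclear body gene SP100, the values were 16.7, 14.6 and 11.5. At chr9:998011-999060, near the transcription factor gene DMRT3, they were 21.0, 13.3 and 26.3. These 3 sites thus passed in every library by a wide margin, and none held the motif. The motif sites near MGAT3, a glycosyltransferase gene, and IPO7, a nuclear import receptor gene, had 12.0 and 15.3, and 10.7 and 11.01, in OCI-Ly1 and VAL. Both were listed in VAL replicate 1 at 1.4045, below the threshold. The GPR61 site passed in all 3, with 15.5, 10.8 and 6.34. GPR61 encodes an orphan G protein-coupled receptor.

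Peaks found in only 1 line included some that were strong. In OCI-Ly1 the top 5 unshared peaks were at chr22:18718008-18718237 (-log10 q 74.0, background 101.3 reads), chr19:27731978-27732333 (51.1, 843 reads), chr3:138634081-138635055 (24.98), chr2:89875065-89875644 (16.6, 96.3 reads) and chr9:136876885-136879543 (14.99). Those on chromosomes 3 and 9 had a background under 1 read. The chromosome 3 peak lay 31411 bp on the 3′ side of the TSS of FOXL2, a forkhead transcription factor. It passed in VAL replicate 1 at 3.00057, just inside the threshold, and was listed in VAL replicate 2 at 2.70, below it. In VAL the strongest was chr1:1079312-1080807, 624 bp past LINC01342, with a value of 45.7 in replicate 2, 7.83 in replicate 1 and 0.344 in OCI-Ly1. It held the motif and had a background of 0.278 reads. The peak near PHLDA3, a p53 target gene, at chr1:201419870-201420483 had 24.2 and 6.03 in the VAL replicates. The peak near SIK1, a salt-inducible kinase gene, at chr21:44819202-44820272 had 23.7 in replicate 2 and did not pass in replicate 1. In OCI-Ly1 it was listed at 1.98, below the threshold. OCI-Ly1 did have 2 passing peaks at chr21:44817718-44831205, the higher at 4.40, of which 1 was shared. The remaining 2 were at chrX:57977555-57978983 (30.0) and chr16:33950967-33951376 (24.97), the latter inside a cluster.

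The ETS motif was concentrated at the summits. It lay within 50 bp of 67 OCI-Ly1 summits (11.1%, 8.84 to 13.9) and in 5 control windows of the same length 250 bp away (0.829%). The difference was 10.3 percentage points (two-sided exact McNemar test over sites, adjusted over 20 tests p = 7.11e-15). In VAL it was at 91 summits (10.7%, 8.83 to 13.0) and in 17 control windows (2.01%), 8.74 points apart (adjusted p = 2.78e-13, same exact test). With a background under 1 read the differences were 11.8 points in OCI-Ly1 and 9.76 in VAL (p = 8.47e-16 and 1.03e-15, exact McNemar tests). Of 98183 intergenic grid windows of this length, 0.306% held it, but these were not matched to the summits in base composition. The motif lay a median of 17 bp from the summit in OCI-Ly1 and 15 bp in VAL. The core alone, GGAA, which is common in any sequence, differed by 1.66 and 1.18 points and did not pass the test (p = 0.568 and 0.634, exact McNemar test).

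Other motifs were sought on both strands in the same windows. Grid shares given beside them come from the same unmatched windows and were not tested. Some contain or overlap the ETS core, namely the PU.1 motif GAGGAAGT, the ETS-IRF composite and GGAA repeats. The core of CTCF, the insulator protein, was at 16 OCI-Ly1 summits (2.65%) and no control window (adjusted p = 0.000203, exact McNemar test), and at 11 VAL summits and 3 control windows (adjusted p = 0.218). On the grid it was in 0.0591% of windows. PU.1, another ETS factor, had 9 summits against 2 control windows in OCI-Ly1 and 21 against 8 in VAL, with a grid share of 0.489% (adjusted p = 0.218 and 0.121, exact McNemar tests). RUNX (TGTGGTT) was at 1.49% of OCI-Ly1 and 2.24% of VAL summits, with 1.95% on the grid. AP-1, sought as TGACTCA and with the other central base as TGAGTCA, was at 1.33% and 0.708%, with 1.47% on the grid. The motif of GATA factors, AGATAAG, was at 0.663% and 0.472%, with 1.48%. The octamer (ATTTGCAT) was at 0.332% and 0.590%, with 1.09%. The ETS-IRF composite was at 0.995% and 2.13% with 1.06%, and NF-kB at 0.829% and 0.945% with 0.294%. None of these passed the test. At least 4 GGAA units in a row, the repeat known from EWS-FLI1 sites, were at 0 of 603 and 0 of 847 summits. A count of 0, taken to allow up to 3 counts, allows shares of up to 0.498% and 0.354%, and the Wilson upper limits were 0.633% and 0.451%. In the grid 0.0754% of windows held it.

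**Figure D5:**
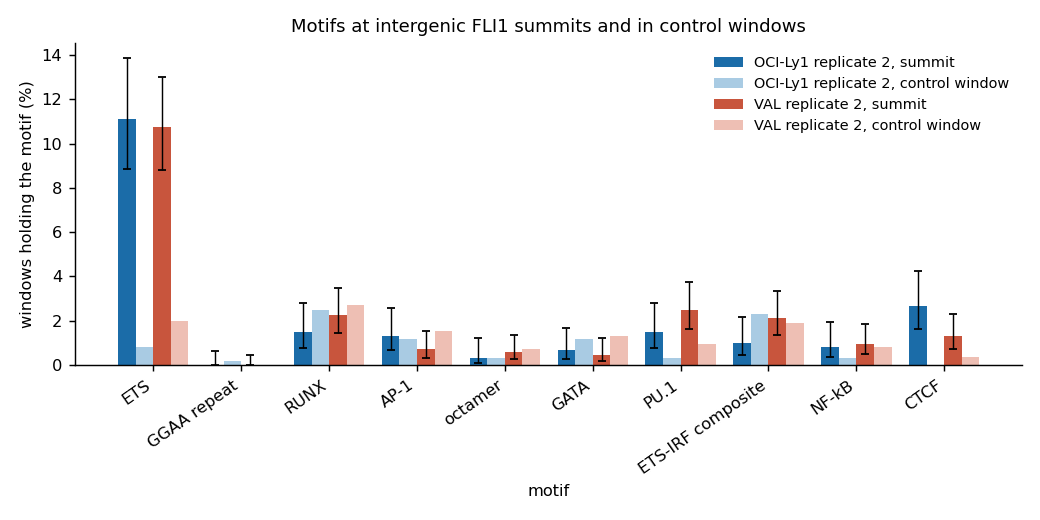
Share (%) of intergenic FLI1 summit windows (50 bp to each side) holding each of 10 motifs, beside control windows of the same length 250 bp away, in OCI-Ly1 replicate 2 (603 peaks) and VAL replicate 2 (847 peaks). Bars start at 0 and error bars on summit shares are Wilson 95% intervals; the ETS bars reach 11.1% and 10.7% over control shares of 0.829% and 2.01%.

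Shared peaks held the motif more often. In OCI-Ly1 it was at 40 of 157 shared peaks (25.5%) and 27 of 446 others (6.05%), 19.4 points apart (adjusted p = 1.25e-09, two-sided Fisher exact test over sites). In VAL it was at 42 of 157 (26.8%) and 49 of 690 (7.10%), 19.7 points apart (adjusted p = 1.55e-10, same exact test). Within the weak peaks, with a -log10 q of 3 to 5, the shares were 26.9% (16.8 to 40.3) and 4.82% (3.03 to 7.58) in OCI-Ly1 and 23.1% (12.6 to 38.3) and 4.01% (2.64 to 6.05) in VAL. At 5 or more they were 24.8% and 10.8% in OCI-Ly1 and 28.0% and 16.9% in VAL, and the intervals overlapped in both lines. Strength was not matched at 5 or more: the median -log10 q was 10.2 against 6.34 in OCI-Ly1 and 10.9 against 6.57 in VAL. With a background under 1 read the shares at 5 or more were 35.9% (25.3 to 48.2) and 15.2% (8.44 to 25.7) in OCI-Ly1. In VAL they were 39.7% (29.6 to 50.8) and 19.2% (13.6 to 26.3). The intervals overlapped slightly in OCI-Ly1 and not in VAL. Overlap of intervals is not a test and these ranges were not tested, so this does not set the lines apart. Over all values this background gave differences of 27.2 points in OCI-Ly1 and 28.1 in VAL (p = 1.21e-11 and 5.81e-14, Fisher exact tests). The split by q was chosen after seeing the data.

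Intergenic peaks were poorer in the motif than promoter peaks, where 44.9% in OCI-Ly1 and 37.8% in VAL held it. The differences were -33.8 and -27.1 points (adjusted p = 3.37e-63 and 1.35e-60, Fisher exact tests). Promoter peaks were also stronger, and between peaks with a -log10 q of 3 to 5 the differences were -19.4 and -17.2 points (p = 1.81e-19 and 1.89e-24, Fisher exact tests). Intronic peaks held it in 9.99% in OCI-Ly1, 1.12 points below intergenic peaks (adjusted p = 0.535), and in 8.04% in VAL, 2.71 points below (adjusted p = 0.0467, Fisher exact tests). The VAL difference was 0.959 points between peaks with a -log10 q of 3 to 5 (p = 0.44, Fisher exact test).

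Base composition went along the same lines. CpG-rich sequence, with at least 50% GC and an observed over expected CpG of at least 0.6 within 250 bp of the summit, was at 118 OCI-Ly1 peaks (19.6%, 16.6 to 22.9) and 132 VAL peaks (15.6%, 13.3 to 18.2). Promoter peaks were at 77.0% and 70.6%, intronic peaks at 18.3% and 12.3%. The motif, which contains a CpG, was at 25.4% of the CpG-rich OCI-Ly1 peaks and 7.63% of the others, and at 20.5% and 8.95% in VAL. Sharing was 41.5% against 22.3% in OCI-Ly1 and 34.8% against 15.5% in VAL. Shared peaks also lay closer to genes, with medians of 7480 bp against 12873 bp in OCI-Ly1 and 7387 bp against 10104 bp in VAL. How far composition accounts for the motif or the sharing was not tested.

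Intergenic peaks formed clusters, defined here as chains of peaks of 1 library whose neighbouring centres were at most 25 kb apart. OCI-Ly1 had 31 clusters with 106 peaks (17.6%, 14.7 to 20.8) and VAL 74 with 202 (23.8%, 21.1 to 26.8). Pairs made up 20 and 52 of them. Intronic peaks were in clusters in 15.8% and 17.3%, promoter peaks in 25.4% and 28.3%. In both lines 17 clusters met a cluster of the other line, 54.8% of those of OCI-Ly1 and 22.97% of those of VAL. Clusters were unevenly spread over the background: 62.2% of OCI-Ly1 peaks with 1 read or more of background were in one, against 7.52% of the others, and 80.9% against 17.2% in VAL. With only peaks under 1 read chained, the shares were 6.71% and 16.2%. At least 1 peak with the ETS motif was in 8 of 31 and 22 of 74 clusters.

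The largest clusters of OCI-Ly1 mostly lay on a high background, while those of VAL were mixed. At chr2:133023083-133039232, near ANKRD30BL and the pseudogene CDC27P1, OCI-Ly1 had 10 peaks and VAL 11. All were shared, 6 in each line also passed in VAL replicate 1, none held the motif, and the median background was 13.0 and 10.1 reads. On chromosome 2 at 92291392 to 92325275, beside the centromere gap, OCI-Ly1 had 8 peaks with a median fold of 1.85 over a background of 95.9 reads. At chr19:48425635-48452660, near the sperm protein gene BSPH1, OCI-Ly1 had 9 peaks and VAL, over a slightly wider span, 8, of which 1 in each was shared. Here the background was lower, 0.782 and 1.03 reads, and the highest values were 5.31 and 10.5. A chain of 12 OCI-Ly1 peaks on chromosome Y lay wholly within 1 Mb of a large gap, with a median background of 29.0 reads. At chr1:143278658-143284155 OCI-Ly1 had 5 peaks, 4 of them shared. At chr16:33935166-33957292 VAL had 8 peaks, 4 shared and 1 with the motif, and at chr2:87623520-87658612 it had 6, of which 1 was shared. The median background of these VAL clusters was 5.60 and 0.897 reads. Further VAL clusters had 5 peaks each, with a median background of 3.95 reads on chromosome Y. On chromosomes 14, 19, 4 and 2 it was 0.769, 0.807, 1.26 and 0.717 reads. OCI-Ly1 also had 5 peaks near the chromosome 10 gap, over a median background of 130.9 reads.

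Peaks at a pair of loci with a mostly low background, chosen after their values were seen, are given next. On the constant-gene side of the immunoglobulin heavy chain locus (IGH), between 106 and 106.25 Mb of chromosome 14, VAL had 10 intergenic peaks and OCI-Ly1 3. They did not form 1 cluster: VAL had a chain of 5 and a chain of 3 there, and OCI-Ly1 a pair. The strongest VAL peak, at chr14:106145751-106147284, had a -log10 q of 13.8 in VAL and 9.38 in OCI-Ly1 and held the motif in both. In VAL replicate 1 it was listed at 2.63, below the threshold. A second shared site at chr14:106026141-106026662 had 6.82 and 3.14 and also held it. The other 8 VAL peaks lay between 3.01 and 5.18. On the 5′ side of PTMA, which encodes prothymosin alpha, each line had 3 peaks in about 19.5 kb, of which 2 were shared. The motif was at 3 of the OCI-Ly1 peaks, with values of 6.61, 7.99 and 6.37, and at 1 of the VAL peaks.

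Intergenic peaks were seen near 9 of 86 genes of a list of B-cell and lymphoma genes, counting peaks whose closest coding TSS belonged to the list and lay within 100 kb. OCI-Ly1 had peaks at 4 of these genes (4.65%) and VAL at 7 (8.14%), with 2 genes in both. Of all 20136 coding genes, 1.72% had such a peak in OCI-Ly1, 2.49% in VAL and 3.61% in either line, against 10.5% of the list. The list was chosen with earlier results known, the counts are small, and the lengths of intergenic sequence beside its genes were not compared, so this is a description. IRF4, a transcription factor of late germinal center B cells and plasma cells, was the only list gene whose peak was shared. That peak, at chr6:371052-372497 and 19964 bp on the 5′ side, had a -log10 q of 9.27 in VAL, 5.17 in OCI-Ly1 and 13.1 in VAL replicate 1. All 3 libraries thus passed there, without the ETS motif and with a background of 1.02 and 2.05 reads in the first pair. VAL had 2 further peaks on this side of IRF4, at chr6:378783-380122 with 3.75 and the motif, and at chr6:356742-357074 with 12.3, the latter closer to the phosphatase gene DUSP22.

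RUNX3, a Runt-family transcription factor, had a different peak in each line, at chr1:25360259-25360764 on the 5′ side in OCI-Ly1 (3.67) and at chr1:25174371-25175351 on the 3′ side in VAL (3.89). The VAL peak 9486 bp on the 5′ side of BTG2, an antiproliferative gene, had 9.21. In OCI-Ly1 this site was listed at 2.89, just below the threshold. The other list genes had 1 weak peak each. In OCI-Ly1 these were the co-stimulatory receptor CD40 (3.71, 5647 bp on the 5′ side) and the kinase PIM1 (3.38, with the motif, listed in VAL at 2.67). In VAL they were the follicle-homing receptor CXCR5 (3.39), the inhibitory helix-loop-helix factor ID3 (3.27), and the Src-family kinases LYN (4.58, with the motif) and BLK (3.87). Each of these rested on 6 to 10 reads in 1 library, and none passed in VAL replicate 1.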

How the data were processed

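FLI1 ChIP-Seq peak lists of OCI-Ly1 and VAL, 1 per library, were analysed as the authors deposited them. By the study's methods reads were mapped to GRCh37 with bowtie2 and filtered with SAMtools for duplicates, multiple positions and a mapping quality under 10, and peaks were called with HOMER at an FDR of 0.001. The submitters' processing notes name hg19, CASAVA 1.4 and BWA. The lists have the 10-column form of MACS2, and their caller, control and settings are not given in the sources used here. The fold enrichment (ratio), the −log10 p and −log10 q and the score (not used) are values the authors deposited.

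Peaks were classed by their centre with GENCODE release 44 on GRCh37. Reads n and background b at a summit were solved from fold = (n + 1) / (b + 1) and a Poisson p, within 0.001 of the listed −log10 p for 600 of 603 and 847 of 847 peaks. Peaks near a large gap lay within 1 Mb of a run of at least 1 Mb of unknown bases, or inside it. Such peaks included 2 per library near the start of chromosome Y, whose windows held unknown bases only. They were counted as having neither the motif nor CpG-rich sequence. Library read totals were not used, so depth is known only through these counts. Intervals are Wilson 95% intervals and cover counting error only. Distances used a 1 kb grid of 981830 intergenic positions. Control windows took a side fixed by a seed. Tests were exact McNemar tests of motifs (20) and exact Fisher tests of the ETS motif or of overlap with VAL replicate 1 (8). They were two-sided, over sites of 1 library, with Benjamini-Hochberg adjustment within each kind. The Fisher test of OCI-Ly1 peaks against VAL replicate 1 counted in the adjustment, but only its counts are given. The q-value chose the members and was not tested.

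Named were the 10 shared peaks with the highest lower −log10 q, per library the 5 strongest unshared peaks, the 5 clusters with most peaks and the farthest peak, and peaks near the list genes; others are marked as chosen after their values were seen. The last of the 5 cluster places was tied at 5 peaks in both libraries. The cluster taken was the one whose strongest peak had the highest −log10 q, on chromosome 1 in OCI-Ly1 and on chromosome Y in VAL. The members and lists were chosen with earlier results of these data known. Scripts were tested on simulated data. Tests used scipy 1.17.1, tables pandas 2.3.3 and numpy 2.4.6 under Python 3.11.15, sequences pysam 0.24.0 and samtools 1.23.1, and plots matplotlib 3.10.9.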

Additional observations from a re-analysis of the deposited data

How the results depend on the processing

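Of 75 alternatives 46 changed neither direction nor call, 29 moved a value or lost a call, and none reversed one. With a −log10 q of at least 5 there were 198 OCI-Ly1 and 284 VAL members, 53.0% and 41.5% of them shared, and the VAL median distance to a gene was 8435.5 bp. Protein coding genes alone as the annotation gave 1271 and 1665 members and median distances of 34385 and 27097 bp, and a limit of 10 kb from a TSS 379 and 502 members. Shared peaks were 16.3% and 11.6% when 50% of both peaks had to overlap, 21.2% and 15.2% with summits within 100 bp, and 34.3% and 24.6% with a partner at a −log10 q of at least 2. Leaving out VAL replicates gave 6.30% to 26.0% of OCI-Ly1 peaks shared, the lower value with VAL replicate 1 in place of replicate 2. Clusters held 13.1% and 18.5% of the peaks with a joining distance of 10 kb and 26.9% in VAL with 50 kb, and 10.96% in OCI-Ly1 without peaks near large gaps. A background under 1 read, chosen after seeing the data, gave 21.5% and 14.9% shared and 6.71% and 16.2% clustered. The motif GGAA gave differences of 1.66 and 1.18 points, and the VAL difference from intronic peaks was 0.959 points at a −log10 q of 3 to 5. The causes were not tested. No member had fewer than 6 reads at its summit, and the part of depth in this was not tested. No paired analysis was possible because the libraries of the lines share no usable second replicate number and no test compared groups of samples.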
